A study of Sus scrofa with 23 samples.

Results

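The genes of secretory and vesicle traffic were taken as the probe sets of the Affymetrix Porcine Genome Array whose platform annotation gives exactly 1 gene symbol that begins with SEC, RAB, SNX, VPS, ARF or TMED and a digit, or with COPA, COPB, COPE, COPG or COPZ. TMED10 was left out. The rule found 159 of the 24123 probe sets, for 100 of the 6765 genes that the annotation names this way. They were 26 probe sets of 18 SEC genes, 13 of 5 TMED genes, 8 of 7 COP genes, 6 of 5 ARF genes, 51 of 30 RAB genes, 21 of 14 SNX genes and 34 of 21 VPS genes. The array reads a transcript with short oligonucleotides, and a probe set is the group of oligonucleotides that gives 1 value for it. Of the 159, 139 probe sets of 92 genes had a mean at or above the 30th percentile of all probe sets and were tested. The other 20 were too dim: 8 VPS, 7 RAB, 2 SNX and 1 each of the SEC, TMED and COP probe sets. COPB2, RAB15, RAB26, RAB27B, RAB3IL1, RAB3IP, SNX30 and VPS13C, the 8 genes with no tested probe set, are not described further.

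Total RNA came from articular cartilage of pigs of a Duroc and Pietrain cross, from sib pairs with and without osteochondrosis, a disorder in which cartilage beneath the joint surface fails to turn into bone. The 4 groups were affected cartilage of the medial femoral condyle (4 samples), non-affected cartilage of that condyle (4 samples from 5 arrays), affected cartilage of the medial part of the humeral condyle (7 samples from 8 arrays) and non-affected cartilage of the humeral condyle (6 samples). Arrays 1 and 2 of the non-affected femur, and arrays 5 and 6 of the affected humerus, differed less than any other pair of a group and were averaged as 1 sample each. The labels do not say that the arrays came from separate animals, which animals were sibs, their age or the grade of their lesions, and a p-value here therefore refers only to the spread among the samples. Levels are the deposited log2 values, which have a floor at 4. Differences are femur minus humerus, or affected minus non-affected, on the same scale. A probe set was called when its limma p-value, adjusted by the Benjamini-Hochberg method over all 16799 tested probe sets, was under 0.05.

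Proteins for export enter the endoplasmic reticulum (ER) through the SEC61 channel, lose their signal peptide and leave in vesicles coated by COPII (SEC13, SEC23, SEC24 and SEC31), while COPI vesicles, whose coat is recruited by ARF GTPases, carry material back from the Golgi. TMED proteins are cargo receptors of both routes, RAB GTPases mark each membrane and direct vesicles to their target, and sorting nexins, retromer and the VPS complexes sort endocytosed cargo to recycling or to the lysosome. Chondrocytes export large amounts of collagen and proteoglycan, and human SEC23A mutations, like those of zebrafish sec23a and sec24d, disturb the skeleton or its cartilage.

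Femoral and humeral arrays differed in ways that the sites cannot be told apart from. The bacterial spike-in control BioB averaged 9.54 to 9.84 on femoral arrays and 7.92 to 8.39 on humeral arrays, array medians were 6.04 to 6.17 in the femur and 6.17 to 6.32 in the humerus, and the labels name no batch. On the first principal component, with 43.5% of the variance, humerus non-affected 5 lay at 29.0, within the femoral range of 26.9 to 58.4, while the other humeral samples lay between -53.2 and -0.80. Its spike-ins were at the humeral level. The mean of 7 chondrocyte markers was 11.99 to 12.47 in affected femur, 11.36 to 11.94 in non-affected femur, 10.81 to 12.02 in affected humerus and 11.74 to 12.27 in non-affected humerus. Within affected cartilage 3 of the 7 were called higher in the femur, and within non-affected cartilage 3 were called lower. The mean of 9 macrophage markers was 4.66 to 6.37 in affected femur, 6.07 to 8.13 in non-affected femur, 7.11 to 9.57 in affected humerus and 5.54 to 8.99 in non-affected humerus. The mean of 8 bone markers was 6.64 to 8.70, 6.71 to 8.19, 7.76 to 10.2 and 7.24 to 10.002 in the same groups, and 5 osteoclast markers averaged 6.18 to 7.66 in the femur and 6.85 to 9.78 in the humerus. Of other cell types, 7 of 7 neutrophil markers (median difference -2.99) and 5 of 6 endothelial markers (-2.19) were called lower in the femur, and 5 of 6 skeletal muscle markers (1.27) higher. As a sign of RNA integrity, the 3' probe set of EF1a exceeded the 5' one by 0.27 to 0.84 on femoral arrays and by 0.14 to 0.28 on humeral arrays. For actin this excess was 2.43 to 3.07 on femoral and 2.63 to 3.55 on humeral arrays, and for GAPDH 0.63 to 0.85 and 0.42 to 1.06. These controls thus did not all point the same way. The part of these differences in the results was not tested beyond the fits with macrophage or bone markers as a covariate. In bulk tissue, fewer cells of a type and less RNA per cell cannot be told apart.

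Femur against humerus was the comparison in which most members differed. Of the 139 tested probe sets, 66 from 49 genes were called (47.5%), 16 higher (11.5%) and 50 lower (36.0%) in the femur. Over all tested probe sets 51.8% were called, 17.6% higher and 34.2% lower, so the share among the members was near that of the array. The median difference was -0.15 among the members and -0.12 over all tested probe sets. That general shift depends on the scaling: it was 0.05 when each array was centred on its median and 0.03 after quantile normalization. The members then split into 32 higher and 38 lower, and into 32 higher and 40 lower. Of all tested probe sets 29.2% were then called higher and 22.4% lower, and 28.3% and 23.2%. Under these scalings the array thus had more higher than lower calls, and the members more lower than higher. The counts by family and role below are to be read against these shares. Under all 3 scalings 38 probe sets stayed lower and 16 stayed higher. Fewer members were called higher with a marker covariate. With the mean of the macrophage markers in the fit 9 members were higher and 46 lower, against 11.3% and 28.3% of all tested probe sets. With that of the bone markers 4 were higher and 41 lower, against 8.24% and 21.8%. These scores differ between the sites, and a call can be lost by a larger SE as well as by a smaller difference. SNX21 went from 0.34 (SE 0.13) to 0.38 (SE 0.16) with the macrophage and 0.41 (SE 0.195) with the bone covariate. VPS37B went from 0.57 (SE 0.19) to 0.12 (SE 0.19) and 0.24 (SE 0.28). Of the 16 higher calls, 6 kept the call with the macrophage and 3 with the bone covariate, and of the 50 lower calls 42 and 36 did. The 3 higher calls kept in both fits were 1 probe set each of SEC31A, SEC61A1 and VPS16. Without humerus non-affected 5, 67 were called, and the comparison within non-affected cartilage had 56 calls. Both counts are given without the share over all tested probe sets.

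**Figure D1:**
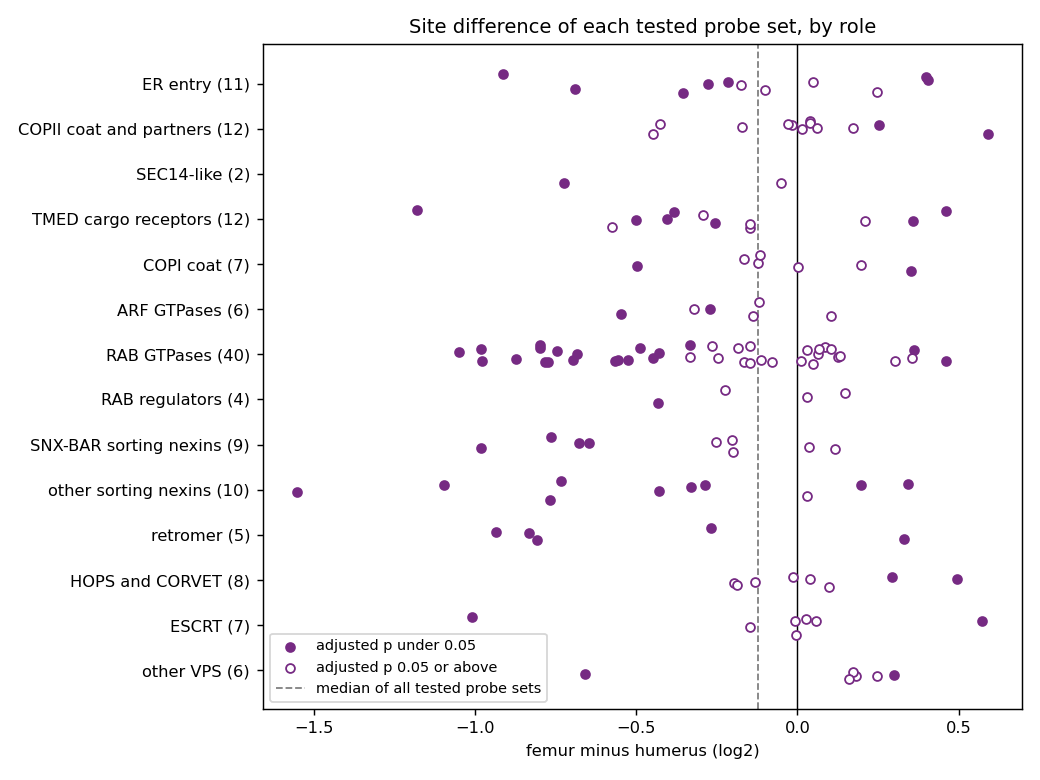
Difference between sites (x axis, femur minus humerus, log2) of each tested probe set, in rows by role with the number tested in parentheses. Filled points are called, open points are not, and the dashed line is the median of all tested probe sets; retromer and sorting nexin points reach far to the left, while COPII and HOPS calls lie to the right.

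The subunits of the ER channel did not move together. SEC61A1, the pore subunit, was at 7.11, 7.50, 7.27 and 7.31 in affected femur and 7.05, 7.27, 7.45 and 7.23 in non-affected femur, against 6.58 to 7.05 with a median of 6.84 in affected humerus and 6.67 to 7.18 with a median of 6.92 in non-affected humerus. The femur was higher by a fold of 1.32 (0.40, SE 0.09, adjusted p = 0.000629). With the bone covariate this probe set was at 0.33 and lost its call (adjusted p = 0.0642). A second SEC61A1 probe set was higher by 0.40, and the third, at 0.25, was not called (adjusted p = 0.109). SEC61G, the smallest subunit, went the other way. It was at 12.18, 12.21, 12.44 and 12.30 in affected femur and 12.11, 12.13, 12.18 and 12.24 in non-affected femur, against 12.50 to 12.70 with a median of 12.60 in affected humerus and 12.44 to 12.71 with a median of 12.51 in non-affected humerus. All 8 femoral samples were below all 13 humeral samples (-0.36, SE 0.06, adjusted p = 6.60e-05), and the difference was -0.19 with arrays centred. SEC61B, the other small subunit, was lower by 0.21 as deposited, and not called under either other scaling.

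SEC62 and SEC63, partners of the channel that help import proteins after their translation, were lower in the femur. SEC62 was at 7.63, 8.999, 8.43 and 6.90 in affected femur and 7.65, 5.88, 6.43 and 6.98 in non-affected femur, against 7.32 to 8.99 with a median of 8.45 in affected humerus and 7.64 to 9.07 with a median of 8.23 in non-affected humerus. Its femoral samples were spread over more than 3 log2 units, and the 2 lowest were non-affected (site difference -0.91, SE 0.30, adjusted p = 0.0144). For SEC63, 1 of 3 tested probe sets was called, at -0.69, and the others were at 0.05 and -0.10. In all, 7 of 11 ER entry probe sets were called, 2 higher and 5 lower, against 17.6% and 34.2% of all tested probe sets. Under the other scalings 3 were called each way.

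Of 12 probe sets of the COPII coat and its partners, 2 were called higher in the femur and none lower, and under each other scaling 3 were higher. Both calls were SEC31A, the outer coat protein. Its probe set with the clearest difference was at 7.41, 6.98, 7.09 and 7.42 in affected femur and 7.29, 7.62, 7.66 and 7.45 in non-affected femur, against 6.61 to 7.15 with a median of 6.69 in affected humerus and 6.65 to 6.89 with a median of 6.78 in non-affected humerus. Of the 8 femoral samples, 6 were above all humeral ones (0.59, SE 0.09, adjusted p = 2.75e-05). The other SEC31A probe sets were at 0.25 (adjusted p = 0.0088, or 0.0999 and 0.298 with the macrophage and bone covariates) and 0.01 (not called). The inner coat protein SEC23A had the lowest COPII differences, at -0.45 and -0.43 on its 2 probe sets, neither called (adjusted p = 0.0802 and 0.101). Both SEC23A probe sets were called lower with the macrophage covariate, at -0.79 and -0.75 (adjusted p = 0.0163 and 0.0255). With the bone covariate they were called lower too, at -0.92 and -0.93 (adjusted p = 0.0244 and 0.0242). Within non-affected cartilage both were called lower, at -0.84 and -0.78 (adjusted p = 0.0265 and 0.0444), beside 1 higher COPII call. SEC23B, its paralog, was at 0.06 and SEC31B at -0.03, neither called. SEC14L2, a lipid-binding protein that shares only its name with the coat, was lower by 0.72 (adjusted p = 0.0039).

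Among the cargo receptors, TMED5 was lower and TMED4 higher in the femur. TMED5 was at 6.81, 7.26, 6.68 and 6.01 in affected femur and 5.73, 5.65, 6.21 and 6.38 in non-affected femur, against 7.21 to 8.43 with a median of 7.59 in affected humerus and 7.04 to 8.27 with a median of 7.33 in non-affected humerus. This was a fold of 2.27 lower (-1.18, SE 0.18, adjusted p = 3.77e-05), with 7 of 8 femoral samples below every humeral sample. The other tested TMED5 probe sets were lower by 0.50 and 0.25, the second of which was not called with arrays centred or with either covariate. TMED4 was at 10.64, 10.44, 10.65 and 10.85 in affected femur and 10.70, 11.19, 10.90 and 10.81 in non-affected femur, against 9.86 to 10.40 with a median of 10.31 in affected humerus and 9.99 to 10.70 with a median of 10.41 in non-affected humerus. A second probe set was higher by 0.36 beside 0.46 for this one (adjusted p = 0.0165 and 0.000673), and the third, at 0.21, was not called. With the bone covariate the first and second TMED4 probe sets were at 0.40 and 0.29, and neither kept its call (adjusted p = 0.054 and 0.247). With the macrophage covariate they were at 0.41 and 0.34, and only the first kept it (adjusted p = 0.0161 and 0.0917). TMED7 had 2 of 4 probe sets called lower, at -0.38 and -0.40, but neither was called with arrays centred. TMED2 (-0.15) and TMED3 (-0.29) were not called.

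The COPI coat had 1 call in each direction among 7 probe sets, and 2 higher and 1 lower under the other scalings. COPG1, a subunit of the adaptor layer, was at 10.43, 10.73, 10.76 and 10.68 in affected femur and 10.68, 10.75, 10.65 and 10.70 in non-affected femur, against 10.09 to 10.54 with a median of 10.32 in affected humerus and 9.96 to 10.68 with a median of 10.34 in non-affected humerus (0.35, SE 0.08, adjusted p = 0.0014). COPZ2, the alternative zeta subunit, was at 10.94, 10.53, 11.13 and 10.99 in affected femur and 11.17, 11.05, 10.98 and 11.09 in non-affected femur, against 11.14 to 11.83 with a median of 11.53 in affected humerus and 10.99 to 12.001 with a median of 11.38 in non-affected humerus (-0.50, SE 0.12, adjusted p = 0.0023). The ranges of the sites overlapped for both genes. Neither kept its call with the macrophage or the bone covariate (COPG1 adjusted p = 0.0511 and 0.127, COPZ2 0.0564 and 0.284). In these fits COPG1 was at 0.26 and 0.25, and COPZ2 at -0.38 and -0.26. COPA (-0.12), COPZ1 (0.20) and COPG2 (-0.17) were not called. Of the 6 ARF probe sets, 2 were called lower: 1 of the 2 of ARF2 (-0.55, adjusted p = 0.0035) and that of ARF4 (-0.27), which was not called under the other scalings. ARF1 was at -0.14, and turned to 0.03 with arrays centred.

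Of 44 probe sets of the RAB family, regulators included, 19 were called lower and 2 higher, against 17 lower and 9 higher under each of the other scalings. The called share of this largest family, 47.7%, was near the 51.8% of all tested probe sets. RAB10, which directs vesicles from the trans-Golgi and endosomes to the cell surface, was at 6.88, 6.54, 6.53 and 6.54 in affected femur and 6.91, 6.24, 6.64 and 7.03 in non-affected femur. In the humerus it was at 7.04 to 8.04 with a median of 7.65 in affected and 7.18 to 8.05 with a median of 7.70 in non-affected cartilage. No femoral sample reached the lowest humeral one, and the fold was 1.97 lower (-0.98, SE 0.13, adjusted p = 5.67e-06). Another 2 RAB10 probe sets were lower by 0.98 and 0.78, and the fourth was at 0.12, not called (adjusted p = 0.246).

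RAB8A, a relative of RAB10 in traffic to the plasma membrane and cilium, was at 5.14, 5.48, 5.21 and 4.34 in affected femur and 4.82, 5.25, 5.15 and 5.25 in non-affected femur, against 5.52 to 6.12 with a median of 5.94 in affected humerus and 5.26 to 6.19 with a median of 5.91 in non-affected humerus. The lowest of these levels lay near the floor of 4, and 7 of 8 femoral samples were below every humeral one (-0.80, SE 0.13, adjusted p = 6.95e-05); its second probe set was at 0.09, not called. RAB11A of the recycling endosome was lower by 0.75 and 0.57 on its 2 probe sets. RAB23, a negative regulator of hedgehog signalling in mouse, was lower by 0.87 and 0.68 on 2 probe sets, with the third at 0.30. RAB1A, needed between ER and Golgi, was lower by 0.53 and 0.80, and its remaining probe set was at 0.35, not called. RAB22A of early endosomes was lower by 0.49, and RAB3D, a RAB of secretory granules, by 1.05 on 1 of 2 tested probe sets, a call lost with either covariate (adjusted p = 0.11 and 0.261). The higher calls were RAB34 and RAB40C (0.36, adjusted p = 0.0011). RAB34, a Golgi and cilium GTPase, was at 9.13, 9.48, 9.01 and 9.46 in affected femur and 9.59, 9.57, 9.58 and 9.73 in non-affected femur, against 8.40 to 9.28 with a median of 8.83 in affected humerus and 8.78 to 9.43 with a median of 8.95 in non-affected humerus (0.46, SE 0.11, adjusted p = 0.002). RAB40C lost its call with the macrophage and with the bone covariate (adjusted p = 0.0519 and 0.133), and RAB34, at 0.11, with the bone covariate (adjusted p = 0.571).

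**Figure D2:**
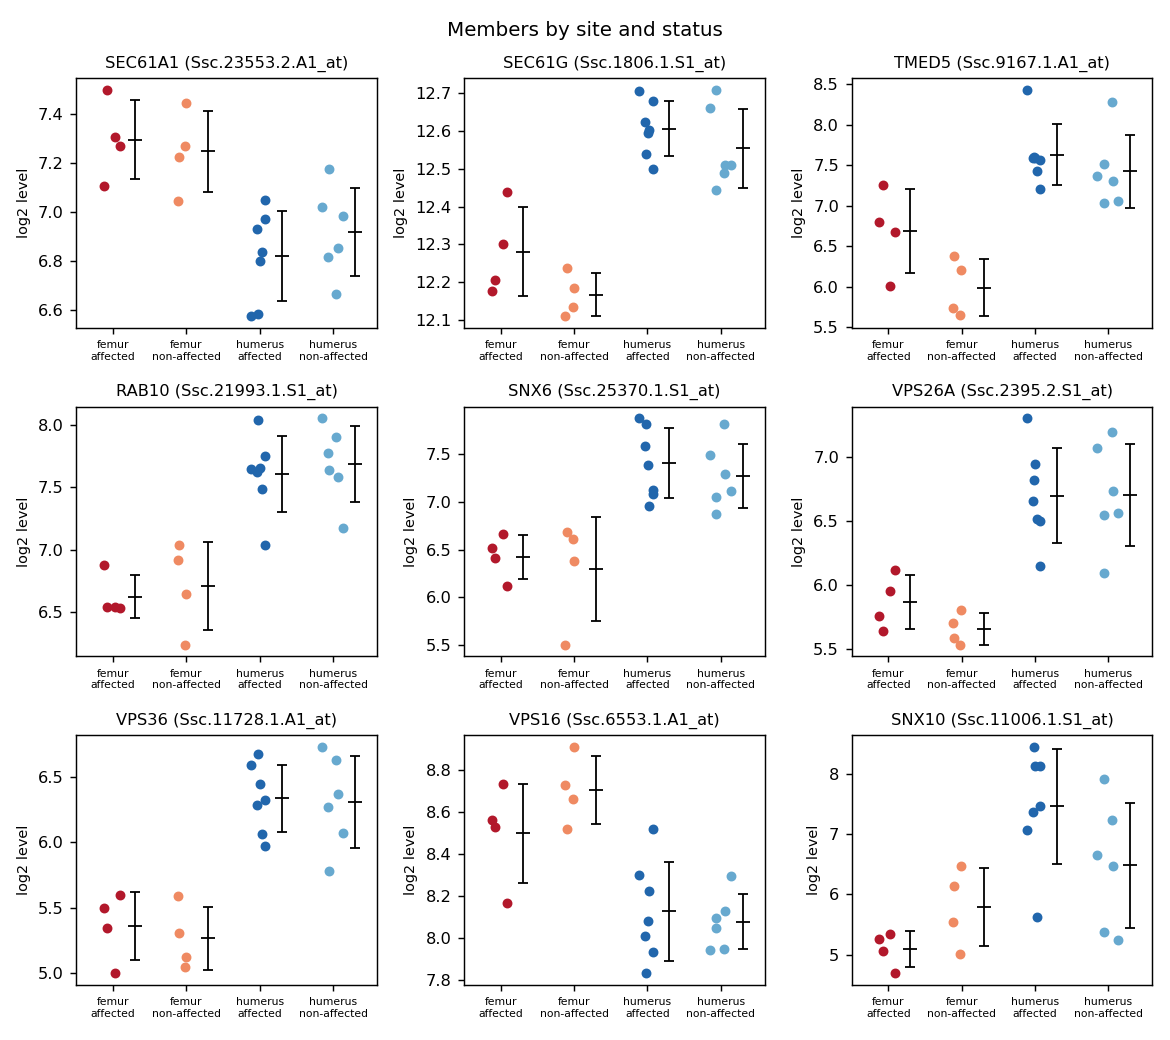
Log2 level (y axis, range differs by panel) of 9 probe sets in each sample of the 4 groups, with mean and SD beside the points. RAB10, SNX6, VPS36 and SEC61G are lower in every femoral than in every humeral sample, SEC61A1 and VPS16 are mostly higher in the femur, and SNX10 is spread widely within the humeral groups.

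Sorting nexins were mostly lower in the femur: 11 of 19 probe sets were called lower and 2 higher, against 34.2% and 17.6% of all tested probe sets. Under the other scalings 8 to 9 were lower and 2 higher, against 22.4% to 23.2% lower and 28.3% to 29.2% higher. SNX10 had the largest site difference of all members. It is an endosomal protein that osteoclasts need in mouse and human. It was at 5.26, 5.06, 4.69 and 5.35 in affected femur and 5.54, 5.02, 6.47 and 6.13 in non-affected femur, against 5.62 to 8.45 with a median of 7.47 in affected humerus and 5.24 to 7.91 with a median of 6.55 in non-affected humerus. The ranges overlapped, since 3 femoral samples were below every humeral sample and 9 of 13 humeral samples above every femoral one. The femur was lower by a fold of 2.93 (-1.55, SE 0.39, adjusted p = 0.0025). With the macrophage markers as a covariate the difference was -0.38 (adjusted p = 0.324), and with the bone markers -0.28 (adjusted p = 0.689).

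SNX6, which carries a membrane-curving BAR domain and works with retromer, was lower on all 4 of its probe sets, by 0.65 to 0.98. The last of these was at 6.51, 6.41, 6.11 and 6.66 in affected femur and 5.50, 6.61, 6.38 and 6.68 in non-affected femur, against 6.96 to 7.88 with a median of 7.39 in affected humerus and 6.87 to 7.81 with a median of 7.20 in non-affected humerus (-0.98, SE 0.16, adjusted p = 5.25e-05). The sites did not overlap on this probe set. The SNX6 probe set with the smallest difference lost its call with the bone covariate (adjusted p = 0.0619). SNX3, which also guides retromer, was lower by 0.73 (adjusted p = 9.92e-06), SNX24 by 1.09 and SNX22 by 0.29, the last not called under the other scalings. SNX21 was higher by 0.34 (adjusted p = 0.0278). It was at 0.38 with the macrophage and 0.41 with the bone covariate, neither called (adjusted p = 0.0726 and 0.114).

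The retromer core, which returns receptors from endosomes to the Golgi, was read by 2 probe sets of VPS26A, 2 of VPS26B and 1 of VPS29. No other gene of the core was tested. Of these 5 probe sets 4 were called lower in the femur, 1 of them of VPS26B, and 1 higher. This stood against 34.2% and 17.6% of all tested probe sets. Under the other scalings 3 were lower and 1 higher. VPS26A was at 5.76, 5.64, 6.11 and 5.95 in affected femur and 5.71, 5.53, 5.80 and 5.58 in non-affected femur, against 6.15 to 7.30 with a median of 6.65 in affected humerus and 6.09 to 7.19 with a median of 6.65 in non-affected humerus. VPS29 was at 8.56, 8.81, 8.78 and 8.53 in affected femur and 8.87, 8.41, 8.42 and 8.68 in non-affected femur, against 8.84 to 9.65 with a median of 9.53 in affected humerus and 9.01 to 9.85 with a median of 9.50 in non-affected humerus. For both subunits 7 of 8 femoral samples were below every humeral one (VPS26A -0.94, SE 0.14, adjusted p = 2.54e-05; VPS29 -0.81, SE 0.12, adjusted p = 1.52e-05), and a second VPS26A probe set was lower by 0.83. VPS26B, the paralog of VPS26A, had probe sets that disagreed, at 0.33 and -0.27, both called as deposited and only the first with arrays centred. With the macrophage and bone covariates the first was at 0.24 and 0.32 and the second at -0.20 and -0.06, none of them called.

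HOPS and CORVET, the tethers of late and early endosomes, had 2 calls among 8 probe sets, both higher and both VPS16, a core subunit. VPS16 was at 8.56, 8.53, 8.17 and 8.73 in affected femur and 8.73, 8.66, 8.91 and 8.52 in non-affected femur, against 7.83 to 8.52 with a median of 8.08 in affected humerus and 7.95 to 8.30 with a median of 8.07 in non-affected humerus (0.50, SE 0.10, adjusted p = 0.000284). The second probe set was higher by 0.29, but not called with either covariate (adjusted p = 0.122 and 0.236). VPS11 (-0.01) and VPS39 (0.04 and -0.13 on its 2 probe sets), of the same role group, were not called. Within affected cartilage the complexes had 1 higher and 3 lower calls, against 13.9% and 24.6% of all tested probe sets. ESCRT, which packs cargo into multivesicular bodies, had 1 call each way. VPS36 of ESCRT-II was at 5.50, 5.35, 5.60 and 5.0002 in affected femur and 5.59, 5.05, 5.12 and 5.31 in non-affected femur, against 5.97 to 6.68 with a median of 6.32 in affected humerus and 5.78 to 6.73 with a median of 6.32 in non-affected humerus. All femoral samples were below all humeral ones (-1.01, SE 0.12, adjusted p = 3.51e-06). VPS37B of ESCRT-I was higher by 0.57 (adjusted p = 0.0152), but at 0.12 with the macrophage and 0.24 with the bone covariate, neither called (adjusted p = 0.641 and 0.528). VPS25 (-0.15) was not called, and VPS72, a chromatin protein outside vesicle traffic, was higher by 0.30 on 1 of 2 probe sets, a call lost with either covariate.

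**Figure D3:**
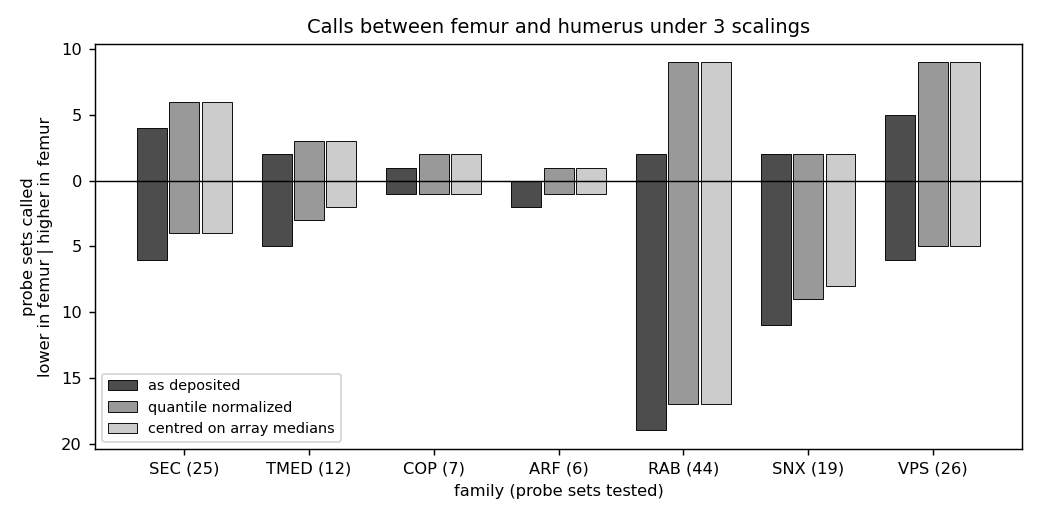
Number of probe sets called higher (up) and lower (down) in the femur than in the humerus for each family, with the values as deposited, quantile normalized or centred on array medians. The RAB and SNX families keep more lower than higher calls under all 3, while SEC and VPS have more lower calls only as deposited and TMED more lower calls as deposited but not after centring.

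Within affected cartilage 52 members were called between femur and humerus, 10 higher and 42 lower, against 38.5% of all tested probe sets, 13.9% higher and 24.6% lower. Within non-affected cartilage 57 were called, 12 higher and 45 lower, against 36.6%, 11.6% higher and 25.0% lower. Centred arrays gave 20 higher and 24 lower members in affected, and 29 higher and 27 lower in non-affected cartilage. Of all tested probe sets 22.01% were then called higher and 15.8% lower in affected, and 21.3% and 15.7% in non-affected cartilage. Quantile normalization gave 20 higher and 25 lower members in affected, and 27 and 30 in non-affected cartilage. The shares of all tested probe sets were then 21.6% higher and 16.2% lower, and 19.8% and 16.2%. With the macrophage markers as a covariate, no member and 2.76% of all probe sets were called in affected cartilage, where affected femur and affected humerus do not overlap in that score. In non-affected cartilage 55 members (39.6%) were called with that covariate, against 37.7% of all tested probe sets. RAB10 was lower by 0.98 in affected and 0.98 in non-affected cartilage, and VPS36 by 0.98 and 1.04. SNX10 was lower by 2.36 in affected cartilage (adjusted p = 0.0011), and was at -0.69 in non-affected cartilage (adjusted p = 0.298). SEC62 was at -0.34 in affected cartilage (adjusted p = 0.505) and lower by 1.52 in non-affected cartilage (adjusted p = 0.0062). The difference between the site effects in affected and non-affected cartilage is the same contrast as that between the status effects of the 2 bones, whose test is given with those effects.

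Affected against non-affected cartilage in the femur gave 2 called members of 139, SEC11C and SNX1, both lower in affected cartilage (1.44%). Over all tested probe sets 1.14% were called, 0.393% higher and 0.75% lower. SEC11C, a catalytic subunit of the signal peptidase that trims proteins in the ER, was at 10.05, 9.57, 9.86 and 9.71 in affected femur, against 10.85, 10.56, 10.18 and 10.60 in non-affected femur. Every affected sample was below every non-affected one, the means were 9.80 ± 0.21 and 10.55 ± 0.28 (SD, n = 4 each), and the fold was 1.68 lower (-0.75, SE 0.14, adjusted p = 0.0136). In the humerus SEC11C was at 9.95 to 10.44 with a median of 10.34 in affected and 10.23 to 10.61 with a median of 10.35 in non-affected cartilage, a difference of -0.09 (adjusted p = 0.903). SNX1, a retromer-associated sorting nexin with a BAR domain, was at 9.66, 9.21, 9.07 and 9.60 in affected femur, against 10.004, 9.85, 10.10 and 9.77 in non-affected femur. Again the groups did not overlap, with means of 9.38 ± 0.29 and 9.93 ± 0.15 and a fold of 1.46 lower (-0.55, SE 0.13, adjusted p = 0.044). In the humerus SNX1 was at 9.51 to 9.67 with a median of 9.59 in affected and 9.48 to 9.91 with a median of 9.61 in non-affected cartilage.

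The macrophage markers moved with these differences: 9 of 9 were lower in affected than in non-affected femur, none of them called, with a median difference of -1.87. Of 6 endothelial markers 5 were lower (median -0.86), and all 7 chondrocyte markers were higher (median 0.29), none called; their part was not tested. With the mean of the macrophage markers as a covariate SEC11C was at -0.77 (adjusted p = 0.0392) and SNX1 at -0.48 (adjusted p = 0.182). SEC11C lost its call without femur affected 2 (adjusted p = 0.0523) and when only the femoral samples were fitted (adjusted p = 0.202); adjusted p ran from 0.00199 to 0.202 over 32 alternatives. SNX1 lost its call in 19 of 32 (adjusted p from 0.0125 to 0.259), 14 of them the removal of 1 sample; it kept the call without femur affected 1 or 4, femur non-affected 5, humerus affected 1, or humerus non-affected 2, 4 or 5.

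**Figure D4:**
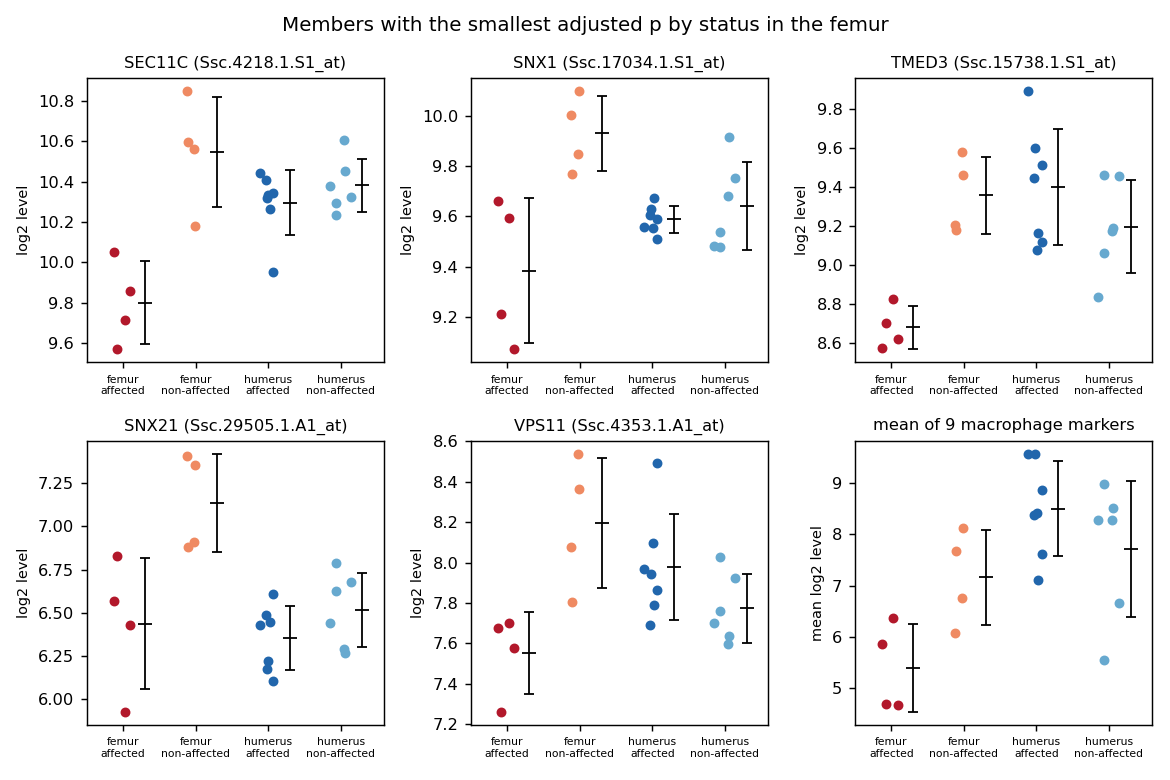
Log2 level of the 5 members with the smallest adjusted p for status in the femur, and the mean of 9 macrophage markers, in each sample of the 4 groups with mean and SD. All 5 members are lower in every affected than in every non-affected femoral sample, the humeral groups overlap, and the macrophage mean is lower in affected femur with the ranges overlapping.

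Next to these calls stood members just short of the threshold, all lower in affected femur. TMED3 was at 8.57, 8.70, 8.62 and 8.83 in affected femur, against 9.20, 9.58, 9.46 and 9.18 in non-affected femur (-0.68, SE 0.17, adjusted p = 0.056). VPS11, a HOPS and CORVET core subunit, was at 7.68, 7.26, 7.58 and 7.70 in affected femur, against 8.08, 8.54, 8.37 and 7.80 in non-affected femur (-0.64, SE 0.17, adjusted p = 0.0658). SNX21 was at 6.57, 6.83, 6.43 and 5.93 in affected femur, against 7.41, 6.91, 7.35 and 6.88 in non-affected femur (-0.70, SE 0.18, adjusted p = 0.0601). Neither TMED3, VPS11 nor SNX21 overlapped between the groups, and none passed the threshold. RAB19, at -0.95, had an adjusted p of 0.0725.

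On the other side no member was called higher in affected femur. SEC62 had the largest value, at 1.25 (SE 0.43, adjusted p = 0.132), followed by SEC63 at 0.85 on 1 of 3 probe sets, and SEC14L2 at 0.74. VPS72 was at 0.51. At an unadjusted p under 0.05, 31 members stood out (22.3%), 11 higher and 20 lower, against 20.4% of all tested probe sets. Every affected sample lay above every non-affected one for 4 probe sets, those of SEC14L1, SEC14L2, SNX6 and VPS72, against 3.01% of all tested probe sets. For 11 every affected sample lay below, those of COPG2, RAB34, SEC11C, SEC24C, SNX1, SNX17, SNX21, TMED3, VPS11, VPS26B and VPS52, against 5.07%. SEC24C, a cargo-binding COPII subunit, and SNX17, a sorting nexin that recycles receptors, are named only for this count, after their values were seen.

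By role, ER entry had a femoral median of 0.11 and 1 call among 11 probe sets, HOPS and CORVET had a median of -0.23 with 7 of 8 differences below 0 and no call, and the COPII and COPI groups had medians of -0.09 and -0.13 with no call. The RAB family had a median of 0.00 in the femur, 22 probe sets on each side of 0, and none called. Over all members the femoral median was -0.07, beside 0.01 over all tested probe sets.

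In the humerus no member passed the threshold in limma, and no probe set of the array did (0.0%). At an unadjusted p under 0.05 there were 10 members (7.19%), 1 higher and 9 lower, against 6.55% of all tested probe sets. RAB22A had the smallest p. It was at 7.89 to 8.23 with a median of 8.13 in affected and 8.29 to 8.48 with a median of 8.41 in non-affected humerus, a difference of -0.31 (SE 0.09, adjusted p = 0.641). It was the 1 member whose affected humeral samples all lay below the non-affected ones, against 0.161% of all tested probe sets, and no member lay wholly above, against 0.0595%. In the femur RAB22A was at 7.95, 7.69, 7.99 and 7.61 in affected and 7.86, 7.72, 7.46 and 7.69 in non-affected cartilage.

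Lower values in affected humerus were also those of SEC31B (-0.38) and SEC23B (-0.40) of the COPII coat, both ARF2 probe sets (-0.62 and -0.43), VPS37B (-0.47), 1 of 3 TMED4 probe sets (-0.33) and 1 of 4 of TMED7 (-0.31), with adjusted p from 0.688 to 0.759. SNX10 was the member with an unadjusted p under 0.05 on the higher side, at 0.98 (SE 0.44, adjusted p = 0.759). Markers of other cells moved with it: all 9 macrophage and all 7 neutrophil markers were higher in affected humerus, none called. So were 4 of 5 osteoclast, 5 of 6 endothelial, 6 of 7 bone and 6 of 6 skeletal muscle markers, also none called. Of 7 chondrocyte markers 0 were higher. With the macrophage or the bone markers as a covariate no member was called for status in the humerus, as without them. The part of the neutrophil and the other markers in the result was not tested.

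With both sites in the fit, no member and 0.0% of all tested probe sets passed the threshold for affected against non-affected cartilage in limma. An unadjusted p under 0.05 was found for 19 members (13.7%), 4 higher and 15 lower, against 7.28% of all tested probe sets. VPS72 had the smallest, at 0.35 (adjusted p = 0.618), with 0.51 in the femur and 0.26 in the humerus. SEC11C was at -0.34, SNX21 at -0.37 and 1 TMED7 probe set at -0.29, which was lower by value in both bones.

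**Figure D5:**
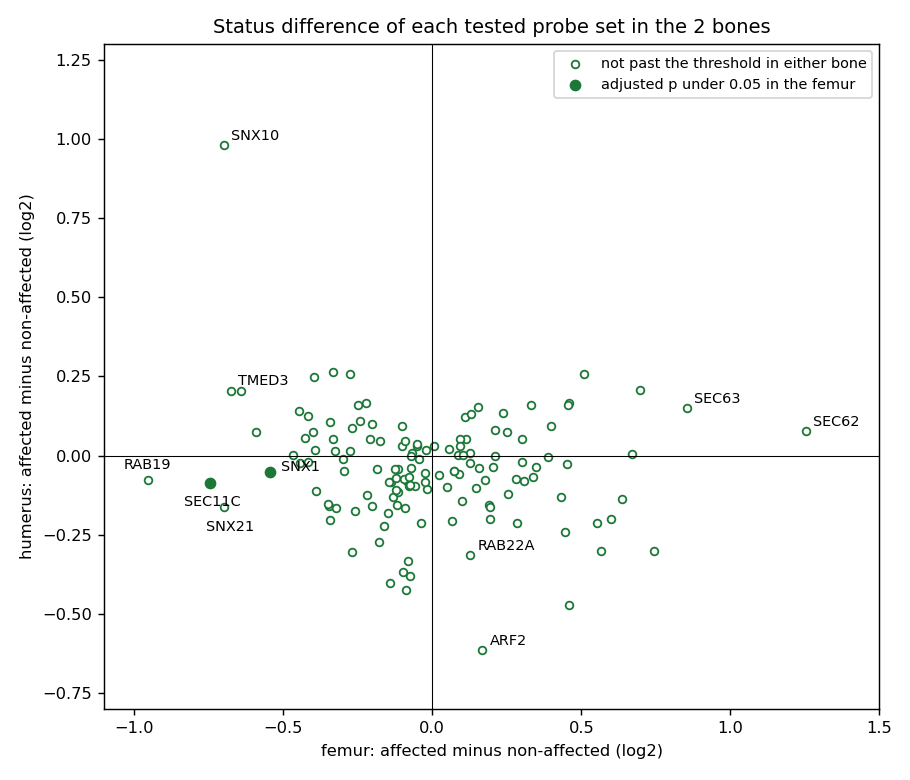
Affected minus non-affected (log2) of each tested probe set in the femur (x axis) and the humerus (y axis). SEC11C and SNX1, the filled points, lie left of 0 in the femur and close to 0 in the humerus, SEC62 and SEC63 lie far to the right, and SNX10 lies highest in the humerus and left of 0 in the femur.

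The difference between the femoral and the humeral status effect was tested directly. No member was called in limma, against 0.268% of all tested probe sets, and 30 members had an unadjusted p under 0.05 (21.6%), against 18.9%. The smallest adjusted p belonged to TMED3, whose status difference was -0.68 in the femur and 0.20 in the humerus (difference between the bones -0.88, SE 0.22, adjusted p = 0.0812). VPS11 followed at -0.64 and 0.20 (adjusted p = 0.0997) and SEC11C at -0.75 and -0.09 (adjusted p = 0.11). SEC14L2 was at 0.74 and -0.30, and RAB22A at 0.13 and -0.31. The effects of status on SEC11C and SNX1 in the femur are thus not shown to differ from those in the humerus.

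Genes read by several probe sets show how far a gene's values depend on the probe set. Of the 33 genes with 2 or more tested probe sets, all probe sets were called between sites for 6, some for 17 and none for 10. For 14 of the 33 genes the site difference had both signs. RAB10, RAB23, RAB1A and VPS26B are among those 14. SNX6 and VPS26A are among those whose probe sets were all called, and so is VPS26B, whose 2 calls had opposite signs.

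Other genes of the same routes, on 8 lists outside the rule with 1 probe set for each gene, were set beside the members; those named were chosen after their values were seen. Over all tested probe sets 34.2% were lower and 17.6% higher, or 22.4% and 29.2% with arrays centred, and the counts are to be read against these shares. Of 22 tested genes for ER entry and signal peptide processing, 14 were called lower and 2 higher in the femur, with a median of -0.33, but 5 lower and 4 higher with arrays centred. SPCS3, a signal peptidase subunit, was at -0.64 and SRP14 of the signal recognition particle at -0.69, while SPCS2 was at 0.63. Of 21 for ER exit and cargo receptors, 12 were lower and 1 higher (6 and 1 centred). The cargo receptor CNIH1 was at -1.11, and CREB3L2, which drives transcription of Sec23a in mouse chondrocytes, was the higher one at 0.83. Of 14 retromer and ESCRT partners, 9 were lower and 1 higher (6 and 2 centred), WASHC4 at -0.96 and CHMP2B at -0.90 among them. These lists, like the retromer members, kept more lower than higher calls under all 3 scalings. Of 18 clathrin and adaptor genes 10 were lower and none higher (4 and 2 centred), with AP1B1 at -0.82.

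For the remaining lists the direction turned or was mixed. Of 20 SNARE genes 5 were lower and 2 higher (5 and 7 centred), and of 12 tethers 4 were lower and 1 higher (1 and 3 centred). Of 15 Golgi genes and ARF regulators 2 were lower and 1 higher (1 and 6 centred), and of 10 Rab regulators 2 were lower and 4 higher (none and 6 centred), GDI2, which extracts RAB proteins from membranes, at 0.36. For status in the femur, 1 gene of the 8 lists was called, the endosomal SNARE STX8, lower by 1.05 in affected femur (adjusted p = 0.0136), and in the humerus none was.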

How the data were processed

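The deposited series matrix gives 1 value per probe set and array for 23 arrays. These values are log2 intensities as the authors deposited them, with a floor at 4. Image analysis used GCOS 1.1.1, per the submitters' processing notes. How the arrays were normalized is not stated in the labels or headers. Values were used as deposited, so a difference in scale between femoral and humeral arrays enters every site difference. The number of arrays limits the precision.

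The members and gene lists were chosen with earlier results of these data known. Gene names come only from the platform annotation, which gives 1 symbol to 10099 probe sets. Within groups, array pairs whose values differed by an SD under 0.25 were averaged (0.108 and 0.214; the next pair, 0.341), which left 21 samples. Control probe sets (124) were left out, as were those with a mean under the 30th percentile (5.30), leaving 16799.

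limma 3.58.1 (R 4.3.3; lmFit, eBayes) fitted site and status together, and the 4 group means for effects within a site, within a status and their difference. P-values were adjusted by the Benjamini-Hochberg method over all tested probe sets. The fits were tested on simulated data.

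Members named are, by comparison, up to 12 called probe sets per direction with the largest difference (where fewer than 5 passed, those with the smallest p up to 5), and by family the 2 brightest and those with the smallest p. Of the tested members, SEC23A, SEC24C and SNX17 were also named, outside this rule. Alternatives changed the filter, scaling, averaging of arrays or probe sets, variance model and samples, or added macrophage or bone markers as a covariate.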

Additional observations from a re-analysis of the deposited data

Results flagged for a closer look

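Among the 23 probe sets given sample by sample, 92 groups of samples were examined, and in 6 the highest or lowest sample stood apart from the rest by Dixon's criterion. Chance alone sets apart about 1 in 20 groups. In affected femur, RAB10 was at 6.88 in sample 1, against a next value of 6.54. In non-affected femur, RAB34 was at 9.73 in sample 5, against 9.59. In affected humerus, TMED5 was at 8.43 in sample 2, against 7.60. In affected humerus 1, the lowest sample stood apart for VPS29 (8.84, against 9.31) and for SEC11C (9.95, against 10.3). In non-affected humerus, RAB8A was at 5.26 in sample 1, against 5.86.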

How the results depend on the processing

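Of 81 named differences that were called, 29 were called under every alternative run, while 34 lost the call with the macrophage markers as a covariate, 36 with the bone markers, 8 after quantile normalization and 7 with centred arrays. Where a count in this section has no share of the whole array beside it, it shows only how the member calls moved. Averaged per gene, 43 of 91 genes were called between sites, 32 in affected and 35 in non-affected cartilage. In affected cartilage the macrophage covariate left 0 site calls and the bone covariate 21, against 2.76% and 16.6% of all tested probe sets. Leaving out 1 sample gave 64 to 73 site calls, 39 to 57 in affected and 36 to 62 in non-affected cartilage, the lowest without femur non-affected 3. For status in the femur the 2 calls became 1 without the filter, 1 after quantile normalization, 1 with array weights, 1 with the macrophage covariate, 0 with only the femoral samples, 7 with every array as a sample and 7 with the bone covariate. With the bone covariate 5.04% of members and 4.82% of all tested probe sets were called, against 1.44% and 1.14% as reported. Leaving out 1 sample gave 0 to 5: 0 without femur affected 2; 5 without femur affected 1 or femur non-affected 5; 4 without femur affected 4; 1 without femur affected 3, femur non-affected 1 and 2, 3 or 4, humerus affected 3, 4, 5 and 6, 7 or 8, or humerus non-affected 1, 3 or 6. The difference between bones had 3 calls with every array as a sample and 1 with the bone covariate, where 1.11% of all tested probe sets were called. The causes were not tested. Both comparisons of status with 0 calls stayed at 0 in all alternatives.

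Of the 130 named results, 5 turned sign under an alternative, of which RAB3D in affected cartilage was called as reported. With centred arrays, ARF1 went to 0.0322, COPA to 0.0468, TMED2 to 0.0236 and VPS25 to 0.0223 between sites. VPS25 was at 0.0612 with the macrophage and 0.1302 with the bone covariate, and RAB3D in affected cartilage at 0.1157 with the macrophage covariate. Without humerus non-affected 5, 126 of 130 kept their side of the threshold. No paired analysis was possible because the labels give no shared replicate numbers and do not say which animals were sibs.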
